A study of Rattus norvegicus with 15 samples.

Results

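Olfactory receptor (OR) genes that lie beside the beta-globin genes of rat chromosome 1 were followed across 15 arrays of olfactory epithelium, the tissue of the nose that holds the odorant-sensing neurons. The probes were chosen by a rule of name and position, set with earlier results of these data known. They are the 142 non-control probes, of 41012 on the array, whose gene name starts with Olr and whose annotated position is on chromosome 1 within 3 Mb of the start of the probe for Hbb, the hemoglobin beta chain (chr1:161701424-161701483, build rn3). They cover 141 gene names, because Olr196 had 2 probes, and the array held 970 other Olr probes. Accessions matched all 142 to a current RefSeq entry on chromosome 1. By current symbol 115 belong to the class I families Or51, Or52, Or55 and Or56, 25 to class II families, and 2 (Olr193 and Olr220) carry no family in their symbol.

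The tissue came from 8 Brown Norway rats aged 6 weeks, for which the labels give no treatment. Rats 1, 2, 5 and 6 were male and rats 3, 4, 7 and 8 female. The nostrils of a rat, named A and B in the labels, were measured apart in 7 rats, and male 1 has nostril A alone. Which letter is the left side is not stated there. All levels below are log2 of the signal of a probe over the median signal of its array, with a floor of -3.32, and levels of different probes are not compared with each other. As a check of the tissue, Omp, the olfactory marker protein of mature sensory neurons, was detected on all 15 arrays at 7.34 to 7.69. Between 69 (male 5B) and 100 (female 3B) of the 142 probes were well above background on an array. Female 8 had the lowest rat mean for 40 of the 43 class I probes that were detected on every array, and values without it are given beside several results that it moves.

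Olfactory receptors are G protein-coupled receptors that detect odorants, and a mature sensory neuron generally expresses a single receptor gene. The class I, or fish-like, receptors of mammals form 1 cluster around the beta-globin genes and are expressed mostly by neurons of the dorsal zone of the epithelium, while class II receptors are spread over many chromosomes and over all zones. In the mouse the transcription factor Bcl11b takes part in the choice between the classes, and an enhancer named the J element acts on many class I genes of the cluster.

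The array reads each gene with a 60-base probe, and some neighbouring receptors differ by few bases under it. The pairs below are shown because probes this similar gave different detection calls or levels, which bears on how far the probes tell neighbours apart. Each is printed 5′ to 3′ as on the array, on the strand given, with capitals where the members of a pair differ.
Olr50, chr1:160582948-160583007, plus strand: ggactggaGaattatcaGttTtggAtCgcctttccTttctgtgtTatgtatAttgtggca
Olr74, chr1:160904756-160904815, plus strand: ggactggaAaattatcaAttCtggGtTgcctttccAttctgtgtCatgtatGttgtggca
Olr159, chr1:162392236-162392295, plus strand: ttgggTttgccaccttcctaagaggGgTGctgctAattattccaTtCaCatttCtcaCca
Olr168, chr1:162582717-162582776, plus strand: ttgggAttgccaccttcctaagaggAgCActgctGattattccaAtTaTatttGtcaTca
Olr93, chr1:161172827-161172886, minus strand: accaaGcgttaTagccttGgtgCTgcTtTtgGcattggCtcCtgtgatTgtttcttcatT
Olr95, chr1:161187353-161187412, minus strand: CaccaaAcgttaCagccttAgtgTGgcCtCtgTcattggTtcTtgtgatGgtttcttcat
Olr50 and Olr74 differ at 8 of 60 bases, Olr159 and Olr168 at 10. The probes for Olr93 and Olr95 are offset by 1 base and differ at 11 of the 59 bases they share, with the overhanging base in capitals too (the last letter of Olr93 and the first of Olr95).

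Olr74 was detected on 15 arrays and Olr50 on 2, and Olr159 on 15 against 0 for Olr168. Olr93 and Olr95 were both detected on all 15 arrays with r = 0.37 over the arrays and 0.76 over rat means, whereas Olr172 and Olr174, which differ at 5 of 59 shared bases, had 0.93 and 0.91. The other pairs with 54 identical bases also moved together. Olr232 and Olr233 had r = 0.97 over the arrays, and Olr186 and Olr189 had 0.90. In all, 10 of the 142 probes shared at least 50 of 60 bases with another receptor probe. For these the array may not separate the genes fully, and the values belong to the probe.

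The first question was how the receptors are placed and which of them were expressed. Class I probes ran from 1549 kb before Hbb to 1475 kb after it, and class II probes followed, after a gap of 697 kb, from 2172 to 2854 kb after Hbb. All 115 probes with a class I symbol on the array lay in this stretch. Both strands were used, with 64 probes on the plus and 78 on the minus strand. The window therefore holds the class I cluster and, at one end, a block of class II genes of the families Or2, Or6, Or10 and Or13.

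A probe detected on at least 11 arrays was called expressed, one detected on 1 to 10 weakly expressed, and the rest not expressed. This gave 77 expressed, 30 weakly expressed and 35 not expressed probes among the 142. Of the class I probes 55 of 115 (47.8%) were expressed, 26 (22.6%) weakly and 34 (29.6%) not, against 647 (66.7%), 152 (15.7%) and 171 (17.6%) of the 970 receptors outside the window. Of all 41012 probes 65.1% were expressed, 11.1% weakly and 23.8% not. For the 127 other receptor probes on chromosome 1 these shares were 59.8%, 19.7% and 20.5%. Of the 25 class II neighbours 20 were expressed, 4 weakly and 1 not. These are counts of probes on the same arrays, and no test was made of them. The median GC content of the probes was 43.3% for expressed and 40.0% for weakly and not expressed class I members, and its part in the calls was not tested.

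Within class I, family Or52 had 36 expressed probes of 66 and Or51 had 15 of 41. Both Or55 probes were expressed, and of the 6 Or56 probes 2 were expressed and 4 weakly. Among larger subfamilies, Or52e had 9 of 14 expressed and Or52n 4 of 11, and the 3 Or51v and 4 of the 5 Or51b probes were weakly or not expressed. Class II subfamilies Or2d (6 of 6) and Or10a (3 of 3) were expressed throughout, while Or2ag had 7 of 11 expressed, 3 weakly and 1 not. The 1 Or6a probe was weakly expressed.

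**Figure D1:**
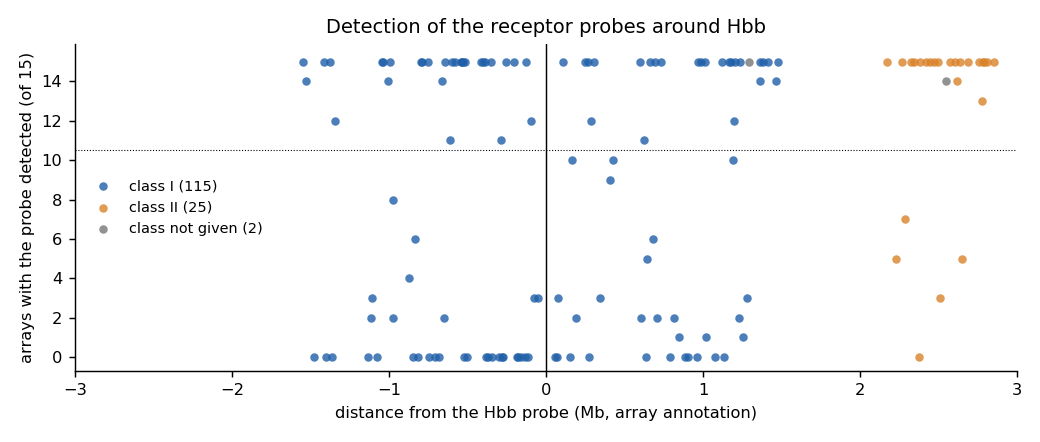
Number of the 15 arrays on which each of the 142 receptor probes was detected (y) against its distance from the Hbb probe in Mb (x), with class I in blue, class II in orange and the 2 probes without a class in grey. Points above the dotted line are expressed; class I probes on both sides of Hbb range from 0 to 15 arrays, while 20 of the 25 class II probes lie above the line.

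Expressed and not expressed class I probes were mixed along the cluster. On the side before Hbb 30 of 62 class I probes were expressed and 23 not, and after Hbb 25 of 53 were expressed and 11 not. The longest run without any detected probe was Olr119 to Olr122, 4 neighbouring probes from 189 to 137 kb before Hbb, and runs of 3 were Olr79 to Olr82 and Olr168 to Olr171.

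Next to the globin genes few probes were expressed, without a test. No receptor probe lay within 50 kb of Hbb. Of the 6 within 100 kb only Olr126 was expressed, 3 (Olr127, Olr128 and Olr131) were weakly expressed on 3 arrays each, and 2 (Olr129 and Olr130) were not detected. Of the 16 within 200 kb 3 were expressed, 5 weakly and 8 not, and the expressed share was 3 of 10 within 150 kb, 9 of 25 within 300 kb and 14 of 37 (37.8%) within 500 kb, against 47.8% of all class I probes. Olr126 (Or52a5b, 99 kb before Hbb) was detected on 12 arrays, with rat means of -0.82, -1.73, -1.68 and -1.03 in males 1, 2, 5 and 6 and of -0.80, -1.05, -1.03 and -2.55 in females 3, 4, 7 and 8. Female 8 was lowest and the sexes overlapped. On the other side the nearest expressed gene was Olr132 (Or51b6, 109 kb after Hbb), detected on all arrays, with a lowest rat mean of -1.39 (female 8), a median of -0.35 and a highest of 0.03 (female 3).

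The next question was how the receptors vary between animals and nostrils. Of the 142 probes 62 were detected on every array, 43 of them class I, 18 class II and 1 without a class. Centered on the mean of each probe, the 43 class I probes moved up and down together from array to array. Their mean was highest in female 3B (0.69), male 6A (0.53), female 4B (0.51) and male 1A (0.49). It was lowest in female 8A (-0.86), female 8B (-0.71), male 5B (-0.57) and male 2A (-0.31). The arrays between were male 2B (-0.11), female 3A (0.11), female 4A (-0.14), male 5A (0.13), male 6B (-0.05), female 7A (-0.03) and female 7B (0.33).

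The shift was carried by nearly all class I probes. In male 1A, female 3B and male 6A 41 of the 43 lay above their own mean, while in female 8A 1 did and in female 8B, male 5B and male 2A 2 did. The SD over arrays had a median of 0.55 for class I, 0.36 for class II neighbours, 0.39 for 549 other receptors detected on all arrays and 0.17 for 24474 other probes. Over rats the median range was 1.44 for class I, 0.87 for class II neighbours, 0.92 for the other receptors and 0.44 for the other probes. Class I thus had the widest spread of these sets, as a description without a test. Much of it rested on female 8: without that rat the median range was 0.89 for class I, 0.72 for class II neighbours and 0.79 for the other receptors, and the median SD 0.43, 0.30 and 0.37.

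**Figure D2:**
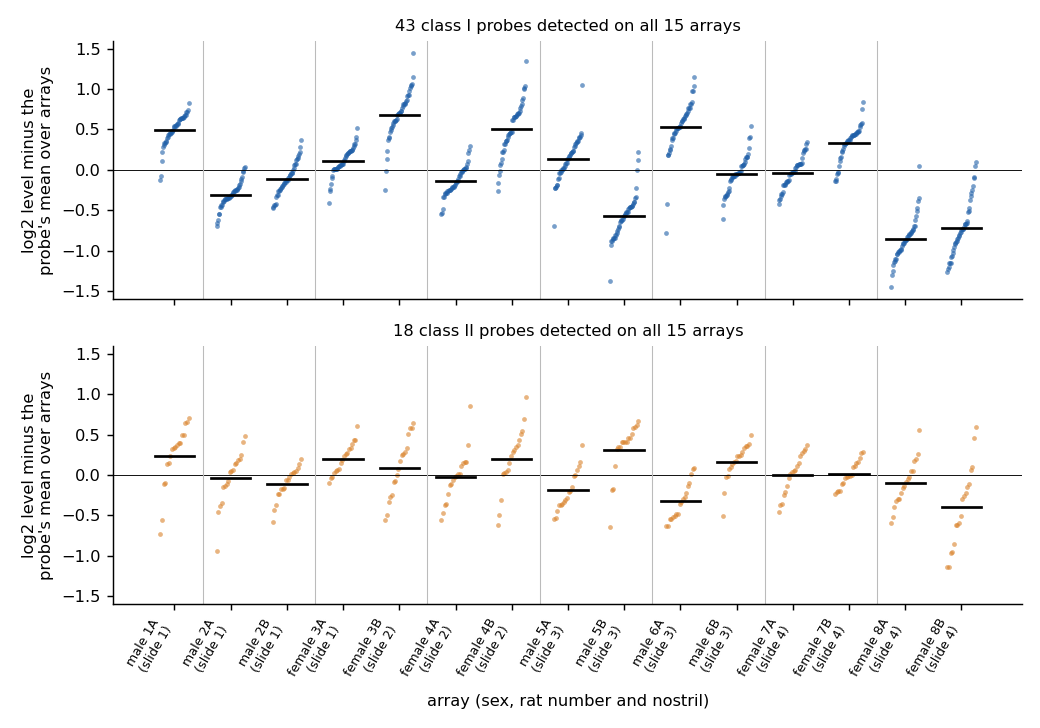
Level of each probe (log2, minus the mean of the probe over arrays) on each of the 15 arrays, for 43 class I probes (top) and 18 class II probes of the window (bottom); points are probes ordered by value within an array, black bars are means, and grey lines part the rats. The class I bars run from -0.86 (female 8A) to 0.69 (female 3B), and the class II bars from -0.40 (female 8B) to 0.31 (male 5B).

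Pairs of class I probes had a median r of 0.84 over the 15 arrays (903 pairs), and 89.1% of the pairs were above 0.5. Class II neighbours had 0.31 among themselves (153 pairs) and 0.17 with class I (774 pairs), and other receptors 0.15 with each other. These correlations are over arrays that share rats and slides, and are given as a description. Distance along the chromosome made little difference: the median r was 0.87 for class I probes under 50 kb apart, 0.85 at 200 to 500 kb, 0.84 at 1000 to 2000 kb and 0.79 at 2000 to 3100 kb. For pairs on opposite sides of Hbb it was 0.84 (460 pairs). Without female 8 the median for class I pairs over the arrays was 0.80. Averaged per rat, class I pairs had a median r of 0.87, which was 0.77 without female 8, the lowest value when any rat was left out. Per rat the median was 0.47 for class I with class II neighbours (48.8% of pairs above 0.5), 0.44 for class I with other receptors and 0.22 for class II neighbours among themselves, so the sets stood less far apart than over the arrays.

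Against the mean of the other class I probes, 36 of 43 reached r of at least 0.8, with a median of 0.93. None of the 18 class II neighbours did (median 0.23), and 85 of 549 receptors elsewhere did (15.5%). Olr75 (Or51f1f, 788 kb before Hbb) and Olr142 (Or51i1, 264 kb after Hbb) ran closest to the class, both with r = 0.98. The probe for Olr75, shown as the one most typical of the class, is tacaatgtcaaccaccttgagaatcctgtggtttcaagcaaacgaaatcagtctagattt (chr1:160913073-160913132, plus strand). It had rat means of 2.05, 1.06, 1.22 and 1.58 in males 1, 2, 5 and 6 and of 1.73, 1.41, 1.52 and 0.40 in females 3, 4, 7 and 8. Male 1 was highest and female 8 lowest, and the sexes overlapped.

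The class I probes with the largest range over rats were Olr115 (1.94), Olr145 (1.87), Olr141 (1.83), Olr152 (1.77) and Olr85 (1.77). In each of them female 8 was the lowest rat, and male 1 or female 3 the highest, and without female 8 the ranges were 1.12, 1.30, 0.86, 0.71 and 0.97. Olr115 (Or52ae8) fell from 2.64 in male 1 to 0.70 in female 8, with a median of 2.02, and Olr141 (Or51k1) from -0.33 in male 1 to -2.16 in female 8, with a median of -0.84. The 5 probes with the smallest range, Olr203 (0.38), Olr227 (0.41), Olr209 (0.52), Olr217 (0.59) and Olr229 (0.68), were all class II. Among bright probes, the class I genes Olr181, Olr108, Olr89, Olr202 and Olr115 each had their lowest rat mean in female 8.

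Some class I probes stood apart from the rest of their class. Olr197 (Or52x1, 1381 kb after Hbb) had r = -0.12 with the class, Olr43 (Or51r1, 1413 kb before Hbb) 0.51 and Olr95 (Or52s6, 514 kb before Hbb) 0.52. Their genes lie inside the cluster, with probes for Olr197 and Olr43 shown here as the members that least followed it.
Olr197, chr1:163082821-163082880, minus strand: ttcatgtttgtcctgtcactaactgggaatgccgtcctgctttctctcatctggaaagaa
Olr43, chr1:160288091-160288150, plus strand: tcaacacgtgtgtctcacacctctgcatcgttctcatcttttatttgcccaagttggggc
Olr197 had rat means of -1.40, -1.41, -1.61 and -1.33 in males 1, 2, 5 and 6 and of -1.30, -0.87, -1.47 and -1.25 in females 3, 4, 7 and 8. Female 8, the lowest rat for most class I probes, was here exceeded by female 4 alone. Olr43 reached 1.34 in female 3B and 1.25 in female 4B and lay between -0.97 and 0.35 on the other arrays.

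**Figure D3:**
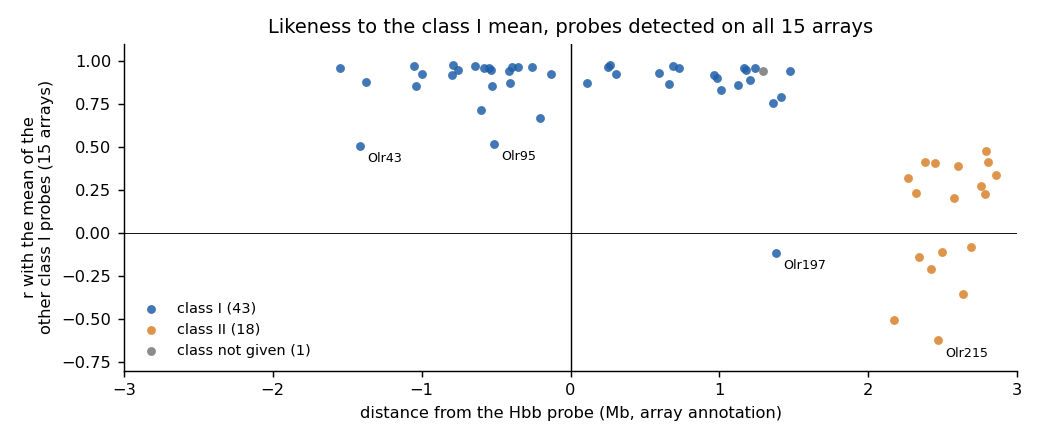
Pearson r of each of 62 receptor probes, over 15 arrays, with the mean of the (other) class I probes (y) against distance from the Hbb probe in Mb (x). The median of the class I points (blue) is 0.93 on a cluster that spans both sides of Hbb, with Olr43, Olr95 and Olr197 lowest, and the 18 class II points (orange) lie between -0.62 and 0.48.

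Detection of probes near the background varied between arrays too. Of the 26 weakly expressed class I probes 21 were detected in female 3B, 18 in female 4B and 12 in male 1A, against 1 each in male 5B, male 6B and female 8A. The order was not that of the class I mean throughout, since male 6A, with the next highest mean after female 3B, had 7 and female 8B, with a low mean, had 5. Male 6A and male 6B had the highest detection limits of all arrays (lowest signal called detected 13.7 and 14.5) and the fewest probes detected (26548 and 26233), and the part of this was not tested. The number detected had r = 0.76 (rho = 0.79) with the class I mean over the 15 arrays. The number of class II neighbours detected had r = -0.08 with the same mean and stayed between 19 and 23.

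Markers of the zones of the epithelium were then set beside these levels. Nqo1, a quinone reductase, and Acsm4, an acyl-CoA synthetase, mark the dorsal zone, and Ncam2, a cell adhesion molecule, the ventral zones. Over 15 arrays the class I mean had r = 0.89 (rho = 0.94) with Nqo1 and r = 0.94 (rho = 0.97) with Acsm4, but r = -0.24 (rho = -0.31) with Ncam2. Another probe for Ncam2, also detected on all arrays, had r = 0.09 with the class I mean and 0.06 with the first, so the probes of this gene disagree, and the single probe for Nrp2, the other ventral gene listed, was detected on 2 arrays. Averaged over the nostrils of each of the 8 rats, r was 0.89 (rho = 0.90) for Nqo1 and 0.93 (rho = 0.83) for Acsm4. Leaving out the 2 rats with the most extreme marker levels gave 0.81 for Nqo1 (without females 3 and 8) and 0.75 for Acsm4 (without male 1 and female 8). The class II mean had r = 0.31 with Nqo1 and 0.24 with Acsm4 over the arrays. Omp had r = 0.25 with the class I mean and Hbb 0.09. Over rats Hbb had r = 0.17, and 0.73 once its most extreme rats, females 3 and 7, were left out.

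Acsm4 ranged from 6.65 in female 8A and 6.66 in female 8B to 7.62 in male 1A and 7.63 in female 3B. Nqo1 ranged from 3.11 in female 8A to 4.38 in female 3B. Female 8 was thus lowest in class I receptors and in both markers, but the markers did not order all animals alike, since female 7 was the next highest rat after male 1 in Acsm4 (7.41) but lay below females 3 and 4 and males 1 and 6 in Nqo1 (3.56). The part of zone makeup in the receptor levels was not tested, and in bulk tissue fewer cells of a type and less RNA per cell cannot be told apart.

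**Figure D4:**
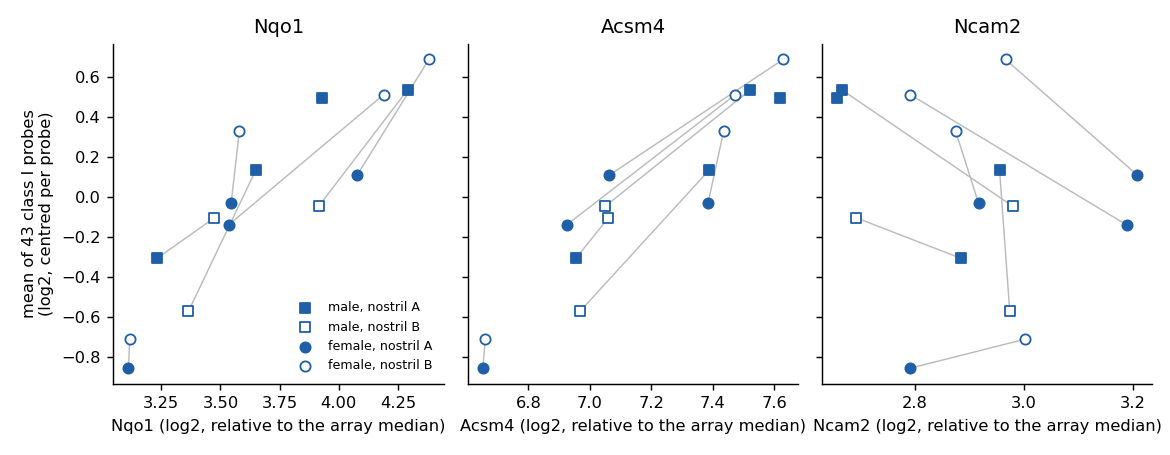
Mean of the 43 class I probes (log2, centered per probe; y) against the levels of Nqo1, Acsm4 and Ncam2 (log2 relative to the array median; x) on 15 arrays, with squares for males, circles for females, filled for nostril A and open for nostril B; lines join the nostrils of a rat. The class I mean goes up with Nqo1 (r = 0.89) and Acsm4 (r = 0.94), and has r = -0.24 with Ncam2.

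Slopes on the marker levels were fitted by limma for all probes, over the 15 arrays with rat as a random block, with Benjamini-Hochberg adjustment over the whole set. Fitting these markers was decided after the class I pattern had been seen. Slide was not part of these fits, and no fit with slide was run for Acsm4. With Acsm4, 42 of the 83 tested members passed a false discovery rate (FDR) of 1%, against 0.442% of the 27573 probes tested. Of these, 41 were class I (of 60 tested) and the other was Olr193, which has no class but lies 1290 kb after Hbb, within the class I stretch. None of the 21 class II neighbours passed, and 1 of them had an unadjusted p under 0.05. All 42 slopes were positive. Among receptors outside the window 65 of 680 passed.

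Class I receptors rose with Acsm4 on both sides of the globin genes, with 22 of 31 called before Hbb (median slope 1.42 log2 units per log2 unit of Acsm4) and 19 of 29 after it (1.44). These values depend on the background correction. With normexp the class I median slope was 0.29, against 0.22 for all probes, and 7 members were called, of 21 probes in all. That correction compressed the array female 4B. With it left out the class I median slope was 0.55, against 0.004 for all probes, and 34 members were called, of 101 probes in all. In the main fit the median slope was 0.01 for class II neighbours, for other receptors and for all probes. Called class I slopes ran from 0.98 (Olr202, Or52b2) to 1.94 (Olr86). The lowest adjusted p belonged to Olr141 (slope 1.86 ± 0.18 SE, adjusted p = 0.000149), followed by Olr75 (1.53 ± 0.16, adjusted p = 0.000202). On single arrays Olr141 went from -2.30 in female 8A and -2.03 in female 8B to -0.15 in female 3B, with -1.80 in male 5B and -0.59 in male 5A.

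With Nqo1 the same fit called 15 members, all class I and all rising, against 0.167% of the probes tested, and 28 of 680 receptors outside the window passed too. Of the 15, 14 (93.3%) were among the 42 called with Acsm4, or 33.3% of those. This count rested on few animals: it was 0 without male 2, female 3, female 4 or female 8, 3 without male 1 or male 5, 11 without male 6 and 22 without female 7. With Acsm4 the count was 18 without female 8 and 31 to 38 without any other rat. At an unadjusted p under 0.05 both markers gave 59 of the 83 members and 57 of the 60 class I members, against 6.77% of all probes with Nqo1 and 5.52% with Acsm4. Receptors outside the window gave 234 and 226 of 680.

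**Figure D5:**
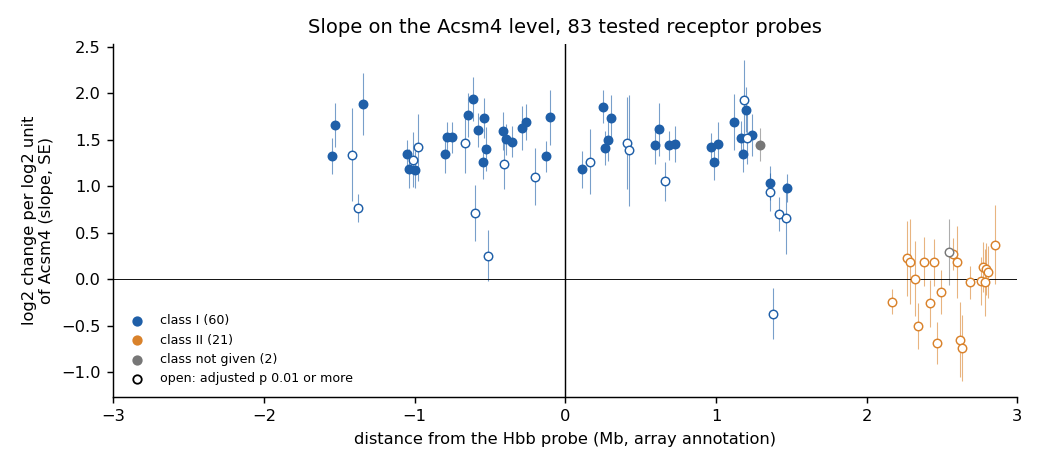
Slope of each of the 83 tested receptor probes on the Acsm4 level (log2 change per log2 unit, with its SE as the bar; y) against distance from the Hbb probe in Mb (x), from 15 arrays with rat as a random block; filled points have an adjusted p under 0.01. Class I slopes (blue) have medians of 1.42 before and 1.44 after Hbb, and the 21 class II slopes (orange) lie between -0.74 and 0.37 with 0 filled.

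Fits over animals alone and over nostrils alone made no calls, with class I median slopes again positive (0.99 on Nqo1 and 1.49 on Acsm4 over rats, 1.54 on Nqo1 within rats). Over rats the median slopes of class II neighbours (0.34 on Nqo1, 0.55 on Acsm4) and of other receptors (0.29 and 0.51) were positive too, while within rats they were -0.27 and -0.08 on Nqo1. With normexp the class I median on Nqo1 was 0.37 over rats and 0.30 within rats, where the median of all probes was 0.48. In that fit within rats 27 members in place of 53 had an unadjusted p under 0.05 in limma. Of all 27573 probes 3036 in place of 1062 had such a p, so the background rose while the member count fell. Without female 8 the slopes on Nqo1 over rats were 0.76 for class I, 0.14 for class II and 0.15 for other receptors, and those on Acsm4 1.33, 0.43 and 0.45. Over 8 rats, with nostrils averaged, 0 of the 83 members passed an FDR of 1% in limma for either marker, as did 0% of all probes. At an unadjusted p under 0.05 there were 59 members with Nqo1 (52 of 60 class I, 6 of 21 class II; 37 and 1 without female 8), against 6% of all probes, and 66 with Acsm4 (53 of 60 class I, 11 of 21 class II; 40 and 4 without female 8), against 5.23%. Of the 680 receptors outside the window 258 and 343 had such a p. Within rats, from the nostrils alone and with rat as a fixed block, 0 members passed an FDR of 1% with Nqo1 (0% of all probes). At an unadjusted p under 0.05, 53 did, 51 of 60 class I and 1 of 21 class II, against 3.85% of all probes.

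The nostrils of a rat often differed in class I receptors, but not in one direction. Nostril B was above A by 0.58 in female 3, 0.65 in female 4, 0.36 in female 7, 0.20 in male 2 and 0.15 in female 8 (mean of the 43 class I probes, log2). It was below A by -0.70 in male 5 and -0.58 in male 6. Between 38 and 42 of the 43 probes went the same way in females 3, 4 and 7 and male 2, 40 fell in males 5 and 6, and 30 rose in female 8. The differences in Nqo1 and in Acsm4 had the sign of the class I difference in 7 of 7 rats, although in female 8 they were only 0.005 and 0.008 and in female 7 0.035 and 0.051. Males 5 and 6 lay on slide 3, which held no other rat, all 4 females went the other way and male 2 went with the females, so slide, sex and animal cannot be told apart in this. Nostrils A and B of female 3 lay on slides 1 and 2, so nostril and slide cannot be told apart in that rat. A fit of the nostril difference between the sexes, made because this pattern had been seen and thus no test of it, gave 0 of 83 members at an FDR of 1% in limma (0% of all probes) and 45 at an unadjusted p under 0.05, 42 of them class I, against 2.36% of all probes.

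Class II neighbours moved against class I in those males. Their mean was higher in nostril B by 0.50 in male 5 and 0.48 in male 6, and in the other rats the difference lay between -0.30 (female 8) and 0.22 (female 4). The nostril difference in Ncam2 had the sign of the class I difference in 1 of 7 rats (female 8), with r = -0.72 over the 7 pairs, while the other Ncam2 probe had the same sign in 2 of 7 and r = -0.20. With the first Ncam2 probe in the fit within rats (limma), 39 of 60 class I and 3 of 21 class II members had an unadjusted p under 0.05, against 7.54% of all probes. An FDR under 1% was reached by 0 of 83 members and by 0 probes in all. The class I median slope was -1.73. Over the 8 rats the class I median slope on Ncam2 was -0.25, with 1 of 60 at an unadjusted p under 0.05, against 9.76% of all probes.

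The paired comparison of nostrils asked whether one side differed over all animals. Limma with rat as a block gave 0 of 83 members past an FDR of 1%, as for all probes (0%). At an unadjusted p under 0.05 there were 6 of 83, against 5.89% of all probes: Olr136, Olr197, Olr87 and Olr43 higher in nostril B, and Olr215 and Olr223 higher in nostril A. That count was 2 without female 4, against 3.72% of all probes, and 11 without female 8, against 8.33%. Olr136 (Or51k7, 164 kb after Hbb) differed most clearly, by 0.62 ± 0.16 (SE, adjusted p = 0.781). Its nostril A and B levels were -2.77 and -1.82 in male 2, -2.03 and -0.78 in female 3, -2.19 and -1.44 in female 4, -1.60 and -1.51 in male 5, -1.52 and -1.35 in male 6, -2.05 and -1.17 in female 7, and -2.78 and -2.53 in female 8. B was above A in every pair, also in males 5 and 6, but the probe was detected on 10 arrays only.

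The design also asks whether male and female rats differ. Of the 83 members 0 passed an FDR of 1% in limma, against 0.0434% of the 27625 probes tested, and the methods' t-test on rats also gave 0. At an unadjusted p under 0.05 there was 1 member by either test, against 17.1% of all probes in limma and 16.2% in the methods' t-test, and in limma 5 without female 7 or female 8, 4 without male 1 and 3 without male 2. With all rats this was Olr213 (Or13n4b, a class II gene 2421 kb after Hbb), with 1.90, 1.66, 1.88 and 1.71 in males 1, 2, 5 and 6 and 1.27, 1.14, 1.79 and 1.38 in females 3, 4, 7 and 8. Females were lower by -0.39 ± 0.14 (SE, limma, adjusted p = 0.195), but female 7 lay among the males. The median difference of the 83 members, female minus male, was -0.10, against 0.01 for all probes, and it turned to 0.12 without female 8 and 0.02 without male 1. Fitted on the 15 arrays in place of rat means it was -0.05, and 0.08 when slide was added as a block. The other members with the lowest p were the class II genes Olr223 (0.48 ± 0.24), Olr224 (0.31 ± 0.17) and Olr221 (0.25 ± 0.14) and the class I gene Olr110 (-0.53 ± 0.27), none of them called.

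Rats of one sex were then compared, with the difference between their nostrils as the error. No member passed an FDR of 1% in limma's F-test (0 of 83, against 2.79% of 27574 probes), and the lowest adjusted p were 0.0345 for Olr142 and 0.0391 for Olr152. At an unadjusted p under 0.05 there were 39 of 83, 35 of them class I (of 60) and 4 class II (of 21), against 37.1% of all probes. The class I count was 1 without female 8, against 32.3% of all probes, and 30 to 43 without any other rat. Between rats that share a slide, 34 of 60 class I and 0 of 21 class II members had an unadjusted p under 0.05, against 17.1% of all probes. Without female 8 only 3 class I members did, against 13.2% of all probes. Olr142 lay at 1.57, 0.66, 0.65 and 1.15 in males 1, 2, 5 and 6 and at 1.46, 1.16, 1.19 and -0.10 in females 3, 4, 7 and 8. Olr152 (Or52h9) lay at 0.62, -0.05, 0.09 and 0.47 in the males and at 0.66, 0.08, 0.10 and -1.11 in the females. Female 8 was apart from the other females in both.

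Because the receptors flank the globin genes, their levels were set against Hbb, which ranged over rats from 5.84 in female 7 and 6.18 in female 3 to 9.13 in male 6. Of the 83 members 0 passed an FDR of 1% in limma over the 8 rats, against 0.13% of all probes, and 1 had an unadjusted p under 0.05, against 5.07%. That member, Olr223 (Or6b9), is a class II gene 2619 kb away with a slope of -0.26 ± 0.09 log2 units per log2 unit of Hbb (adjusted p = 0.949). It lay at -1.81, -0.59, -1.56 and -1.39 in males 1, 2, 5 and 6 and at -0.81, -1.04, -0.92 and -0.65 in females 3, 4, 7 and 8. The median slope was 0.05 for class I and 0.04 for class II members and -0.01 for all probes. The direction was not stable: the class I median was -0.14 with slide as a block on the arrays (69 of 83 members below 0) and -0.01 without female 8. Of the 2 expressed genes nearest to Hbb, Olr126 had a slope of 0.06 ± 0.16 and Olr132 one of 0.02 ± 0.12. A relation of the receptors to the globin level was thus not detectable with 8 rats.

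Genes that act in receptor choice and signalling were set beside the receptors. Of 26 listed genes (among them the olfactory G protein Gnal, adenylyl cyclase Adcy3, the cyclic nucleotide-gated channel, the regulators Lhx2, Ldb1 and Ebf1 to Ebf3, the transport proteins Rtp1 and Rtp2, and Bcl11b) 21 were found. Of their 29 tested probes 0 passed an FDR of 1% between the sexes, nostrils or rats or with the Hbb, Nqo1 or Acsm4 level. Their r with the class I mean over arrays ran from -0.42 to 0.50. The 2 probes for Bcl11b had r of -0.03 and 0.03.

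Other cell types were checked by marker lists. Markers of mature neurons (10 probes of 7 genes) had r of -0.42 to 0.47 with the class I mean, and those of immature neurons (4 probes) 0.14 to 0.31. Of the 5 sustentacular cell probes Sult1c1, a sulfotransferase, had r = 0.86 and the lowest had -0.08. Bone markers, which can come with the turbinates, were detected and ran against class I, with r of -0.49 to -0.18 over 5 probes and a summed level (signal over array median) of 2208 to 6414 over rats. Neither of the 2 skeletal muscle probes found was tested, and 2 respiratory epithelium probes had r of -0.11 and 0.29. The part of these cells in the receptor levels was not tested.

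Some members are known for other reasons. Olr59, the rat gene whose human relative is also known from the prostate, was expressed (14 arrays), with rat means from -2.25 in female 8 to -1.10 in male 6 and a median of -1.63. It followed the class with r = 0.78. Olr226 (Or6a2), the receptor often used as a model for aldehyde detection, was weakly expressed (5 arrays), highest at -0.96 in female 3A and at the floor of -3.32 in male 1A, female 3B and male 6A. The 2 probes for Olr196 were detected on 14 and 15 arrays and had r = 0.82 with each other over the arrays.
Olr59, chr1:160692173-160692232, plus strand: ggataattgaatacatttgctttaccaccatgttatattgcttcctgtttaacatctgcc
Olr226, chr1:164352030-164352089, minus strand: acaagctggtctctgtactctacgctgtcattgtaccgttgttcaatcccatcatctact
Olr196, chr1:163061998-163062057, minus strand: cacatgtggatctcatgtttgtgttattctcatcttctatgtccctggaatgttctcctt
Olr196, chr1:163062616-163062675, minus strand: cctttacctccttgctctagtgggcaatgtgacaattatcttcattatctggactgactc
These 60-mers are printed as the probes whose levels stand for these genes, and no base in them is marked.

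PCR primers are listed in the methods for some receptors, and 11 of those genes lie in the window. Olr43, Olr78, Olr157, Olr215, Olr223, Olr224 and Olr229 were expressed, Olr148, Olr156 and Olr226 weakly expressed, and Olr49 (Or51s1) was at the floor on all arrays. Olr157 (Or52p1) rose with Nqo1 over the arrays (slope 1.05 ± 0.16, adjusted p = 0.00577), and its slope on Acsm4 was 1.05 ± 0.21 (adjusted p = 0.0221). Olr215 (Or2ag20), a class II gene, ran opposite to class I (r = -0.62), with its highest rat mean in female 8 (1.14) and its lowest in male 1 (-0.18).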

How the data were processed

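RNA of each olfactory epithelium had been labeled with Cy3 and hybridized to 1-color Agilent whole rat genome arrays. The authors extracted spot intensities with Feature Extraction 9.5.1.1, with local background subtracted, and deposited them unscaled. They also deposited a ratio table, and 99.93% of its values for 20463 bright probes came within 2% of signal over array median over probe median. It served as an alternative. Names and coordinates (rn3) were taken from the annotation of the array, and receptor classes come from current RefSeq symbols, matched by accession.

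The intensity of each of 43379 non-control spots was used unless the software marked it as an outlier (61 to 175 per array), spots of a probe were averaged, and values were divided by the array median (57.4 to 83.4), floored at 0.1 and taken to log2. Detection was the software's well-above-background call, whose lowest signal was 10.01 to 14.5. Probes detected on at least 7 arrays were tested with limma 3.58.1 in R 4.3.3 (lmFit, eBayes with a trend), with Benjamini-Hochberg adjustment over all tested probes and an FDR of 1%. Nostrils of a rat were averaged for tests over rats. Nostrils are paired within rats by the labels, so rat was a block in the nostril comparison. Rats are separate animals, and their number limits the precision. Arrays lay 3 or 4 to a slide: slide 1 held males 1 and 2 and female 3A, slide 2 female 3B and female 4, slide 3 males 5 and 6, slide 4 females 7 and 8. The rat correlation in the random block fits was 0.507 (Nqo1) and 0.532 (Acsm4). Each kind of fit (sexes, nostrils, rats, and slopes over rats, within rats and with rat as a random block) was tested on simulated data.

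Named genes were those called, the 5 with the lowest p in each comparison, the 5 with the highest and lowest range, the 8 brightest, the 4 nearest Hbb on each side, the study's primer list and Olr59. The members and gene lists were chosen with earlier results of these data known. Suppliers of the rats were not analysed here.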

Additional observations from a re-analysis of the deposited data

Results flagged for a closer look

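For 28 named members and the means of both classes, 60 groups of 4 rats of one sex in all, 5 rat means lay far from the other 3 by Dixon's test at 95%. Chance flags about 1 in 20 independent groups, but these members move together and some were named for a large range or a low p between rats, so the number of flags cannot be read against that rate. Olr115 was 0.70 in female 8 against 2.01 to 2.27 in the other females, and Olr78 was 0.24 in female 8 against 1.31 to 1.53. Both are class I genes. The other flagged means belonged to class II genes. Olr224 was 1.70 in female 7 against 1.96 to 2.00 in the other females, and Olr217 was 0.092 in female 7 against -0.38 to -0.31. Olr229 was -0.17 in male 1, the only male with 1 array, against -0.65 to -0.57 in the other males. The part of slide and array number in these values was not tested.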

How the results depend on the processing

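The counts of 0 members past an FDR of 1% between the sexes, nostrils and rats and with Hbb stayed 0 under every alternative run, including no replicate block for the nostrils (0), and without the 10 near-identical probes. Without the block 4 members had an unadjusted p under 0.05, against 1.47% of all probes, and with it 6, against 5.89%. Called members with Nqo1 over 15 arrays numbered 15, 7 under normexp and 0 to 22 without a rat, and with Acsm4 42, 7 under normexp and 18 to 38 without a rat. Under normexp the signals of female 4B were compressed (90th percentile over median 3.71, against 4.54 to 4.84 on the other arrays, log2). With that array left out normexp gave 6 with Nqo1 and 34 with Acsm4. Over the 15 arrays with slide as a block and no rat term, Nqo1 gave 2 members, and 13 of all 27573 probes. Over rats it gave 0 members. Class I members at an unadjusted p under 0.05 were 52 with Nqo1 and 1 with Ncam2 in its place, and within rats 51, 21 under normexp and 39 with Ncam2, whose slopes were negative (median -1.73 against 1.54). Of all 27573 probes within rats 1062 had such a p with Nqo1, 3036 under normexp and 2079 with Ncam2. Between rats the class I members at such a p fell from 35 to 1 without female 8, and between rats on shared slides from 34 to 3. The shares of all probes went from 37.1% to 32.3% and from 17.1% to 13.2%. The median sex difference went from -0.10 to values between -0.23 and 0.12 without a rat, and was 0 without a filter on dim probes. Expressed members numbered 77, 62 when all 15 arrays were required, 103 with normexp, 109 with a looser detection call and 74 to 79 without a rat. A window of 2 Mb held 116 probes, 56 of them expressed. Over all probes the sexes gave 12 calls on rat means. With the 15 arrays as independent there were 1031, and 641 when slide was added as a block to that array-level fit. Rats of one sex gave 768, 148 with slide as a random block and 1 on shared slides. By the 75th percentile they gave 1305, by quantile 1450 and by normexp 78. Slopes on Nqo1, Acsm4 and Ncam2 and their alternatives were chosen after seeing the data. Probes near background, 65 of the 142 here, have no tested level or an uncertain one.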

Other observations

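Receptors elsewhere in the genome that followed the class I mean most closely over the 15 arrays were Olr1325 on chromosome 8 and Olr463 on chromosome 3 (both r = 0.98), Olr1641 on chromosome 15 and Olr1596 on chromosome 13 (both r = 0.97). Receptors of at least r = 0.8 made up 18 of 63 on chromosome 8, 28 of 172 on chromosome 3, 10 of 61 on the rest of chromosome 1, 5 of 12 on chromosome 13, 6 of 23 on chromosome 15, 6 of 30 on chromosome 20, 6 of 68 on chromosome 10, 3 of 51 on chromosome 7, and 1 of 18, 9 and 24 on chromosomes 4, 5 and 11, with 0 of 6 on chromosome 17. Trace amine-associated receptors, a separate family of olfactory receptors added after their values were seen, had 9 tested probes with r from 0.31 (Taar8c) to 0.94 (Taar9), and the 6 of them detected on all arrays had r of at least 0.79.

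Of 24474 probes not named as olfactory receptors 26 reached r of at least 0.8 (0.106%). Among them were Taar9 (0.94), Acsm4, Papss2 (0.91), which makes the sulfate donor for sulfotransferases, the sulfate transporter Slc26a1 (0.90), the neuropeptide gene Cartpt (0.90), Dgat2 (0.88 and 0.87 for 2 probes), an enzyme of triglyceride synthesis, and Sult1c1 (0.86). These arrays share rats and slides, and the values are descriptions.

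The window also held 116 probes of other names, 86 of them tested. Between rats of one sex 4 passed an FDR of 1% (Trpc2, Hbb, Hbe2 and a beta-globin named MGC72973), against 2.79% of all probes, and with the Hbb level 1 did (MGC72973, limma, adjusted p = 0.000237), against 0.13%. With the Acsm4 level 1 passed, against 0.442% of all probes. It is a probe for a genomic clone without a gene name, which lies 186 kb after Hbb between class I genes and had r = 0.87 with the class I mean. The 69 detected on all arrays had a median r of 0.00 with the class I mean.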
